A study of Mus musculus with 8 samples.

Results

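The circadian clock genes Arntl, Clock, Per1, Per2, Per3, Cry1, Cry2, Nr1d1, Nr1d2 and Dbp were followed in RNA from mouse Achilles tendon. They were taken by gene symbol, and all 10 had values, among 15747 genes with values of 55450 listed. The tissue came from wild type C57BL/6J mice in 2 groups. Of the 8 libraries, 4 were from sham-operated tendons and 4 from tendons with a partial cut, made by a punch 1.5 mm across that left a half-round gap of 0.75 mm on the lateral side. In all of them the tendon was taken off the soleus muscle before RNA extraction. The labels used here give neither the time since surgery nor the hour of day at which tissue was collected, and they do not say whether each sample was a separate animal. The p-values thus reflect the scatter among these samples alone, part or all of which may be technical. A difference in collection hour between the groups, if there was one, and the operation itself cannot be told apart.

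The mammalian clock is a transcriptional feedback loop that runs in most cells over about a day. The proteins of Arntl (also called BMAL1) and Clock pair and bind E-box sequences, and so switch on the Per and Cry genes, whose products then return to the nucleus and block that pair. The same pair drives Nr1d1 and Nr1d2, which encode the REV-ERB repressors of Arntl, and Dbp, which encodes a factor that binds D-box sequences, among them in Per genes. In many mouse tissues Arntl RNA is therefore high when Dbp and Nr1d1 RNA are low. Tendon fibroblasts are known to hold such a clock.

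Stretches near 4 of these genes show the kinds of element through which the loop is wired. They are taken from RefSeq on GRCm38.p6, are written 5′ to 3′ on the strand of the gene, and carry the element in capitals. Per3 holds a D-box, TTATGTAA, in 2 copies (chr4:151044805-151044881, minus strand). Cry1 holds an E-box, CACGTG, and the variant AACGTG (chr10:85185094-85185150, minus strand), and Nr1d1 holds that variant (chr11:98775378-98775437, minus strand). Arntl holds a ROR element, the kind of site bound by the REV-ERB and ROR proteins (chr7:113207532-113207557, plus strand, just after a start site).
Per3: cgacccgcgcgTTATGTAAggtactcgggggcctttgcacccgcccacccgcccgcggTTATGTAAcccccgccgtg
Cry1: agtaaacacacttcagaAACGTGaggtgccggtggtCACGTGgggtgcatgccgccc
Nr1d1: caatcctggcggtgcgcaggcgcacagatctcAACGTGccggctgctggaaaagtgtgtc
Arntl: ggcagAAAGTAGGTCAgggacggagg

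Of 32851 such windows of all genes (250 bases before to 50 bases after a start, read on both strands), 1.06% held a D-box as TTATGTAA or TTACGTAA. CACGTG was in 7.15%, the variant CACGTT, the same letters as AACGTG read on the other strand, in 4.68%, and the capital letters shown for Arntl in 7 windows. That longer word was searched only in this exact form, so its count is not comparable with the shares of the shorter words. Windows were found for 9 of the 10 genes, all but Per2. Among them CACGTG was in windows of Cry1 and Per1 only, and those of Dbp and Nr1d2 held neither CACGTG nor the variant. Sequence outside these windows was not searched. A match describes the sequence and is no evidence of binding in these samples.

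The data carry 2 patterns. Between the groups, only Dbp and Nr1d2 passed the test with group as its only term, and both fell after injury. With the replicate number as a block, 3 of the 10 rose and 4 fell, where 61.9% of all genes were called. Within the groups, most clock genes varied from library to library by more than a typical gene, and libraries with the same replicate number stood high or low together in sham and injured tendon.

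Values below are normalised read counts as the authors deposited them. The test was limma on log2(value + 1) over all 15747 genes with Benjamini-Hochberg adjustment and a threshold of 0.05, and fold changes are on that scale. In this fit 59.7% of all genes differed between the groups, 28.5% higher and 31.3% lower in injured tendon. Of the 10 clock genes, 0 rose, 2 fell and 8 did not pass, and the same 2 were the only ones with an unadjusted p under 0.05. In this fit that is a smaller share than among all genes. With the replicate number as a block the share of clock genes called was not smaller, as given below. Their median log2 fold change was −0.09, against −0.02 for all genes. The groups did not overlap for 2 of the 10, against 55.6% of all genes. Their standard errors on the log2 scale ran from 0.10 for Clock to 0.56 for Per2, with a median of 0.23 against 0.13 over all genes. Leaving out together the 3 libraries richest in muscle RNA within their groups, which were sham 4, injury 3 and injury 4, 1 rose (Cry1) and 4 fell (Dbp, Nr1d2, Nr1d1 and Per3). The share of all genes called in that fit is not given here.

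Dbp, the D-box activator and an output of the loop, fell furthest. It lies on chromosome 7 at 45705088 to 45710203 (GENCODE M21). The sham libraries held 641, 497, 1154 and 433 normalised counts for replicates 1 to 4, and the injury libraries 341, 219, 343 and 219. Every injury library was below every sham library, and in both groups replicates 1 and 3 were the higher pair. The log2 fold change was −1.20 (SE 0.30), or 2.30-fold lower, with an adjusted p of 0.00687 in limma. It remained past the threshold when any 1 library was left out, and with a covariate for muscle genes its log2 fold change was −1.83 (adjusted p = 0.0381). The exons of Dbp share 539 bases, 18.0% of its exon length, with those of Sphk2, a sphingosine kinase gene on the other strand. Sphk2 also fell, with a log2 fold change of −0.56 (adjusted p = 0.0125 in limma), from 623 to 1028 in sham down to 430 to 590 in injury libraries. The strand setting of the counting is not given in the sources used here. Without it, reads from the shared bases cannot be assigned to Dbp or Sphk2.

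Nr1d2, encoding the repressor REV-ERBβ, was the other gene that fell. Its sham libraries held 1349, 1038, 1507 and 1287 normalised counts and its injury libraries 842, 539, 942 and 763. The groups did not overlap, and replicates 1 and 3 were again the higher pair in both. The log2 fold change was −0.76 (SE 0.18), or 1.70-fold lower, with an adjusted p of 0.00451 in limma. When the mean log2 value of 33 muscle genes entered the limma model, the log2 fold change was −0.66 and the call was lost (adjusted p = 0.195). Across the alternatives the adjusted p for Nr1d2 ran from 0.000139 to 0.195.

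Nr1d1, which encodes REV-ERBα, showed as large an average difference but did not pass. Its sham libraries held 1098, 1087, 3265 and 2175 normalised counts and its injury libraries 622, 598, 1588 and 1560. Replicates 3 and 4 were the higher pair in both groups, and 2 of the 4 injury libraries lay below all sham libraries while the other 2 lay within the sham range. The log2 fold change was −0.80 (SE 0.45, 95% interval −1.82 to 0.22, adjusted p = 0.156 in limma). It was −0.49 without sham replicate 3, the highest library. Nr1d1, on chromosome 11 at 98767932 to 98775333, shares 263 exon bases with Thra, a thyroid hormone receptor gene on the other strand. Thra ranged from 2324 to 3280 over the sham libraries and from 2212 to 2790 over the injury libraries (log2 fold change −0.09, adjusted p = 0.551 in limma), and its highest libraries were likewise replicates 3 and 4. The difference between the log2 values of Nr1d1 and Nr1d2 moved by −0.04 between the groups (exact two-sided permutation test, p = 0.857, adjusted p = 0.857 over 7 pairs).

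**Figure D1:**
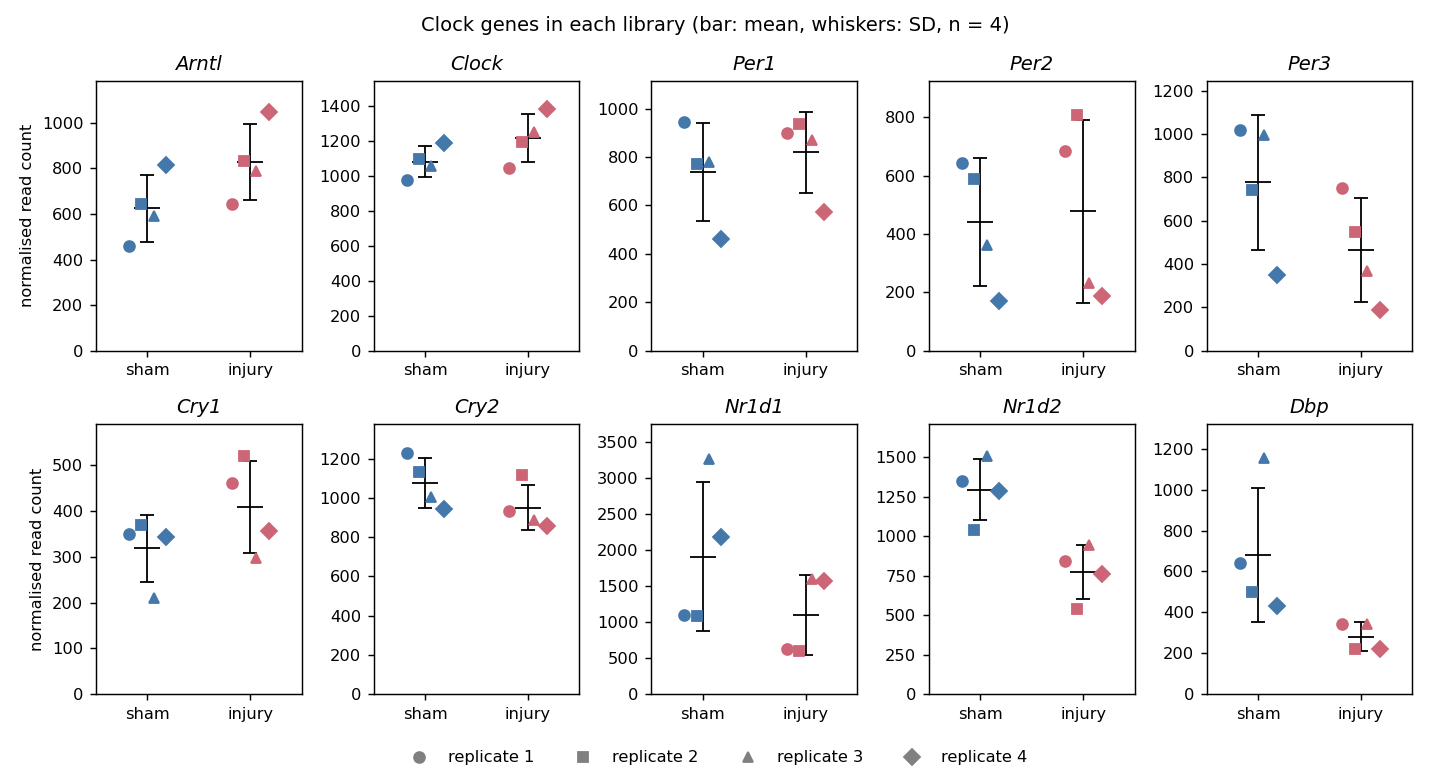
Normalised read count (y axis, starting at 0) of each of the 10 clock genes in the 4 sham and 4 injury libraries. The symbol gives the replicate number, the short bar the group mean and the whiskers the SD. Every injury library lies below every sham library for Dbp and Nr1d2, whereas for Per2 and Nr1d1 the replicate number separates the libraries within both groups.

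The activators of the loop were both somewhat higher on average after injury, and neither passed. Arntl, on chromosome 7 at 113207465 to 113314126, was at 458, 643, 589 and 813 normalised counts in sham and 645, 831, 789 and 1046 in injured tendon. In both groups replicate 1 was the lowest and replicate 4 the highest library, and 2 injury libraries exceeded all sham libraries. The log2 fold change was 0.41 (SE 0.19, 95% interval −0.01 to 0.84), with an adjusted p of 0.0858 in limma, and it passed without sham replicate 4 (adjusted p = 0.0258) or without injury replicate 1 (adjusted p = 0.0397). Across the alternatives the limma adjusted p for Arntl ran from 0.00102 to 0.213.

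Clock, the partner of Arntl, varied least among the 10 genes. It held 976, 1097, 1054 and 1187 normalised counts in sham and 1043, 1190, 1247 and 1380 in injured tendon, where 3 libraries were above all sham libraries. The log2 fold change was 0.17 (SE 0.10, adjusted p = 0.164 in limma). Scaling by upper quartiles brought Arntl and Clock past the threshold (log2 fold changes 0.46 and 0.22, adjusted p = 0.0430 and adjusted p = 0.0459), and these were then 2 of 10 clock genes that rose. Over all genes, 4821 of 15747 rose in that fit.

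The Period genes, whose products are the inhibitors of the loop together with the cryptochromes, spread widely within each group. Per1 had 946, 770, 778 and 460 normalised counts in sham and 898, 936, 871 and 571 in injured tendon, and the groups overlapped throughout (limma log2 fold change 0.17 with an SE of 0.23, adjusted p = 0.548). Replicate 4 was the lowest Per1 library in both groups. Per2 had 644, 587, 364 and 169 in sham and 684, 808, 232 and 186 in injured tendon. Replicates 1 and 2 were thus above replicates 3 and 4 in both groups, while the group means, 441 ± 218 and 478 ± 315 (SD, n = 4), were close (log2 fold change 0.01, 95% interval −1.27 to 1.28, adjusted p = 0.990 in limma). The interval includes a change of 2-fold in either direction, so in this fit neither is excluded for Per2. With the replicate number as a block the same difference had an SE of 0.17 in place of 0.56.

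Per3, the third Period gene, had 1016, 743, 996 and 351 normalised counts in sham and 749, 548, 369 and 189 in injured tendon, where 1 library lay below all sham libraries. The log2 fold change was −0.80 (SE 0.45, 95% interval −1.83 to 0.23, adjusted p = 0.158 in limma). It passed without sham replicate 4 (log2 fold change −1.14, adjusted p = 0.0442 in limma), and across the alternatives the adjusted p ran from 0.00186 to 0.368. The shift of Per1 relative to Per3 was 0.97 on the log2 scale and that of Per2 relative to Per3 was 0.81. In an exact two-sided permutation test these gave p = 0.0571 and p = 0.0857, or adjusted p = 0.133 and adjusted p = 0.150 over 7 pairs. The smallest p this test allows is 0.0286, so little room was left to pass after adjustment, and the values do not settle whether the Period genes differed in their response. Per1 relative to Per2 moved by 0.16 (exact p = 0.714, adjusted p = 0.833).

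The cryptochromes, the other inhibitors, did not pass. Cry1 had 351, 370, 209 and 344 normalised counts in sham and 462, 521, 297 and 356 in injured tendon (limma log2 fold change 0.36 with an SE of 0.22, adjusted p = 0.189). Replicate 3 was the lowest Cry1 library in both groups, and 2 injury libraries exceeded all sham libraries. Cry2 had 1232, 1131, 1008 and 944 in sham and 934, 1117, 890 and 859 in injured tendon, with 3 injury libraries below all sham libraries (limma log2 fold change −0.18 with an SE of 0.11, adjusted p = 0.177). Cry1 relative to Cry2 moved by 0.54 (exact two-sided permutation p = 0.0571, adjusted p = 0.133 over 7 pairs). Of the exon length of Cry2, 4.67% is shared with D930015M05Rik, a transcript on the other strand with values of 48 to 82, far below those of Cry2. Arntl shares 33 exon bases with the antisense gene Gm45355.

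**Figure D2:**
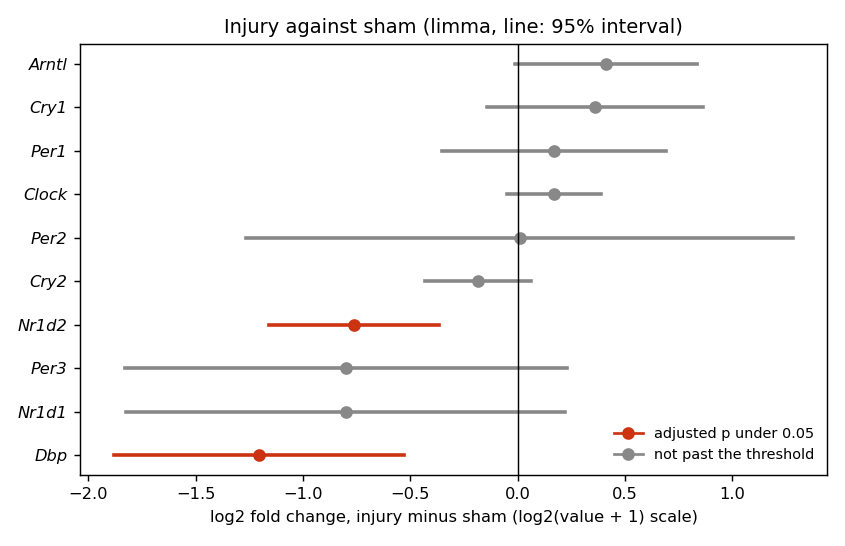
Log2 fold change between injury and sham (x axis, log2(value + 1) scale) with its 95% interval from limma, for each clock gene (y axis). Dbp at −1.20 and Nr1d2 at −0.76 are the only genes past the threshold, and the intervals of Per2, Per3 and Nr1d1 are the widest.

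The balance of the opposed limbs of the loop can be read within each library as the log2 value of Arntl minus that of Dbp. It was −0.48, 0.37, −0.97 and 0.91 in sham and 0.92, 1.92, 1.20 and 2.25 in injured tendon. Every injury library thus lay above every sham library, although sham replicate 4 at 0.91 nearly met injury replicate 1 at 0.92. The mean difference was 1.62. It is made up of the log2 fold changes of Arntl (0.41) and Dbp (−1.20) given above, so it is not a separate result. The exact two-sided permutation p was 0.0286, the smallest that 4 against 4 libraries allow, and the adjusted p over 7 pairs was 0.133. Arntl relative to Clock moved by 0.24 (exact p = 0.114, adjusted p = 0.160).

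Most of these genes spread widely within the groups. The SD on the log2 scale, pooled over both groups, was 0.98 for Per2, 0.79 for Per3, 0.78 for Nr1d1 and 0.51 for Dbp, against a median of 0.18 over all genes. Only 1.27% of all genes varied more than Per2, 3.05% more than Per3, 3.08% more than Nr1d1 and 8.27% more than Dbp. Clock (0.14) and Cry2 (0.17) lay below the median of all genes and the other 8 above it. Among the sham libraries alone the highest value exceeded the lowest 3.81-fold for Per2 and 2.89-fold for Per3, but 1.22-fold for Clock.

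For 7 of the 10 clock genes the same 2 replicate numbers were the higher pair in sham and in injured tendon, which held for 22.1% of all genes. This count was chosen after the values were seen. The higher pair was replicates 1 and 2 for Per2, Cry1 and Cry2, replicates 3 and 4 for Nr1d1, replicates 1 and 3 for Dbp and Nr1d2, and replicates 2 and 4 for Arntl. For Clock, Per1 and Per3 the pairs differed in 1 member. The labels do not say what a replicate number stands for. With that number as a block in limma, 7 of the 10 clock genes were called, where 61.9% of all genes were.

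Muscle RNA also differed between libraries. The 33 skeletal muscle markers measured, all of which fell after injury, held 9.13, 8.95, 7.87 and 13.3% of all counts in sham replicates 1 to 4 and 0.436, 0.806, 2.02 and 2.68% in injury replicates 1 to 4. Sham replicate 3 had the least muscle RNA of its group and the highest Nr1d1 and Dbp, whereas injury replicate 3 was above injury replicates 1 and 2 in muscle RNA and had the highest Nr1d1 of its group. Replicate 4 had the most muscle RNA in both groups. In both it was the lowest library for Per1, Per2, Per3 and Cry2 and the highest for Arntl and Clock. For Dbp it was lowest in sham and tied for lowest in injured tendon. For Cry1, Nr1d1 and Nr1d2 it was neither lowest nor highest in either group. The part of muscle RNA in this pattern was not tested. With the muscle covariate the log2 fold changes of Per1, Per2, Cry1 and Nr1d1 changed sign, and those of Arntl, Clock, Per2 and Per3 passed. The muscle shares of the groups did not overlap, so the covariate and the group are largely confounded. Fold changes with the covariate are thus extrapolated and less certain, with an SE for Nr1d2 of 0.35 in place of 0.18. Fewer muscle cells and less RNA per muscle cell cannot be told apart in bulk tissue, and the part of muscle RNA in the differences between the groups was not tested further.

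**Figure D3:**
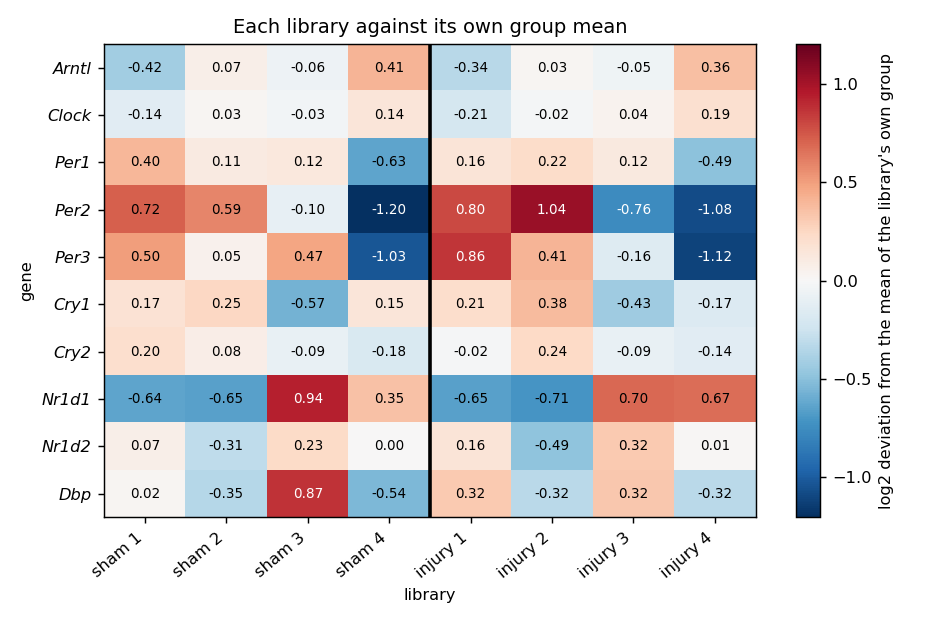
Deviation of each library (x axis) from the mean of its own group on the log2 scale, for the 10 clock genes (y axis), with the value printed in each cell. Red is above and blue below the group mean. Libraries with the same replicate number resemble each other across the black line between sham and injury, as for Nr1d1, where replicates 1 and 2 are low and replicates 3 and 4 high on both sides.

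Other markers give the setting. Of 10 tendon fibroblast markers, 6 rose and none fell, and none was at 0 in any library. Scx ranged from 577 to 791 in the sham group and from 1075 to 1441 in the injury group, and Tnmd from 4354 to 6443 and from 21442 to 26504. Of 12 macrophage and leukocyte markers 9 rose, and their share of counts was 0.0814 to 0.133% in sham and 0.187 to 0.239% in injured tendon. All 8 fat cell markers fell, from 0.106 to 0.252% to between 0.0244 and 0.0463%. Of 8 endothelial markers 1 rose and 5 fell, and of 8 proliferation markers 4 rose. The part of these cell types in the clock gene values was not tested.

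Accessory transcription factors of the clock were called about as often as other genes, 63.6% of them against 59.7% of all genes. Of 11 measured accessory factors, 3 rose (Npas2, Rora and Bhlhe40), 4 fell (among them Tef, Timeless and Ciart) and 4 did not pass, with a median log2 fold change of −0.16 against −0.02 for all genes. Rora, encoding a nuclear receptor that activates Arntl, rose from 1160 ± 143 to 1703 ± 229 (adjusted p = 0.00325 in limma).

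Npas2, a paralog of Clock that can take its place beside Arntl, had 274, 321, 237 and 299 normalised counts in sham and 498, 595, 735 and 863 in injured tendon. All injury libraries were above all sham libraries, and the rise was 2.34-fold (adjusted p = 0.000263 in limma), or 2.01 on the log2 scale in place of 1.23 with the muscle covariate. Tef, a relative of Dbp that binds the same D-box, dropped from 2822 ± 404 to 1467 ± 438 (1.98-fold lower, adjusted p = 0.00377 in limma), and its log2 fold change of −0.99 became −1.998 with the muscle covariate. Timeless was 1.47-fold lower (adjusted p = 0.00997 in limma). It lost its call with the muscle covariate (adjusted p = 0.197 in limma) and when sham 4, injury 3 and injury 4 were left out (adjusted p = 0.0575). Across the alternatives the adjusted p ran from 0.00550 to 0.197.

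Of 26 kinases, ubiquitin ligases and cofactors that act on clock proteins, 4 rose, 7 fell and 15 did not pass, a smaller share than the 59.7% among all genes, with a median log2 fold change of −0.05. Usp2, a deubiquitinase that acts on clock proteins and is itself rhythmic, went from 1228 ± 196 to 423 ± 93.2 (2.93-fold lower, adjusted p = 0.000101 in limma). With the muscle covariate its log2 fold change moved from −1.55 to −0.78 (adjusted p = 0.0296). Cipc, an inhibitor of the CLOCK protein, was 1.41-fold lower (adjusted p = 0.000959 in limma) and the kinase gene Gsk3a 1.26-fold lower (adjusted p = 0.00104 in limma). Both lost their calls with the muscle covariate (adjusted p = 0.138 and adjusted p = 0.132 in limma). Across the alternatives the adjusted p ran from 0.000308 to 0.138 for Cipc and from 0.000429 to 0.132 for Gsk3a. Nono, whose product binds PER proteins, rose by 0.37 on the log2 scale (adjusted p = 0.000365 in limma). Csnk1a1, the most abundant member, was at 3403 ± 342 and 3114 ± 161 (adjusted p = 0.235 in limma), and was called lower with equal library totals (log2 fold change −0.22, adjusted p = 0.0345).

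Of 19 genes known to cycle under clock control in many mouse organs, 2 rose, 8 fell and 9 did not pass, with a median log2 fold change of −0.31. The 52.6% called compare with 59.7% of all genes. Among those that fell, Tef and Ciart are also counted with the accessory factors and Usp2 with the regulators. Pnpla2, encoding a triglyceride lipase, was 4.73-fold lower (adjusted p = 9.49e-06 in limma), its log2 fold change of −2.24 being −1.58 with the muscle covariate. Nampt, encoding an enzyme of NAD synthesis, was 2.05-fold lower (adjusted p = 6.52e-05 in limma). Pdk4, an inhibitor of pyruvate oxidation, dropped from 9257 ± 1685 to 1069 ± 750. Its log2 fold change of −3.52 became −0.50 with the muscle covariate, where it was not called (adjusted p = 0.465 in limma, with 9.92e-05 the lowest across the alternatives). It was −2.84 without injury replicate 1 and −4.47 without sham 4, injury 3 and injury 4. Dtx4, encoding a ubiquitin ligase, rose 2.11-fold (adjusted p = 9.59e-05 in limma), and the other gene that rose was Tspan4, which overlapped between the groups.

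Libraries with the same number also resembled each other for some of these genes. The same 2 numbers were highest in both groups for 9 of the 19 output genes and 4 of the 11 accessory factors and 3 of the 26 regulators, against 22.1% of all genes. Hlf, Nfil3 and Bhlhe41 are counted in both the output and the accessory list, so these counts are not independent. Thra, another of the output genes counted, shares exon bases with Nr1d1. The next examples were chosen after their values were seen. Wee1, a cell cycle kinase gene under E-box control, had 259, 211, 145 and 91 normalised counts in sham and 316, 260, 183 and 130 in injured tendon. Tsc22d3, encoding the glucocorticoid-induced protein GILZ, had 4881, 4294, 2434 and 2282 in sham and 5193, 5478, 2413 and 2795 in injured tendon. Hlf, a relative of Dbp, had 218, 167, 102 and 76 in sham and 296, 321, 147 and 143 in injured tendon. In all 3 genes replicates 1 and 2 were above replicates 3 and 4 in both groups, as in Per2, and none of the 3 passed the test between the groups (adjusted p = 0.413, adjusted p = 0.669 and adjusted p = 0.142 in limma).

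**Figure D4:**
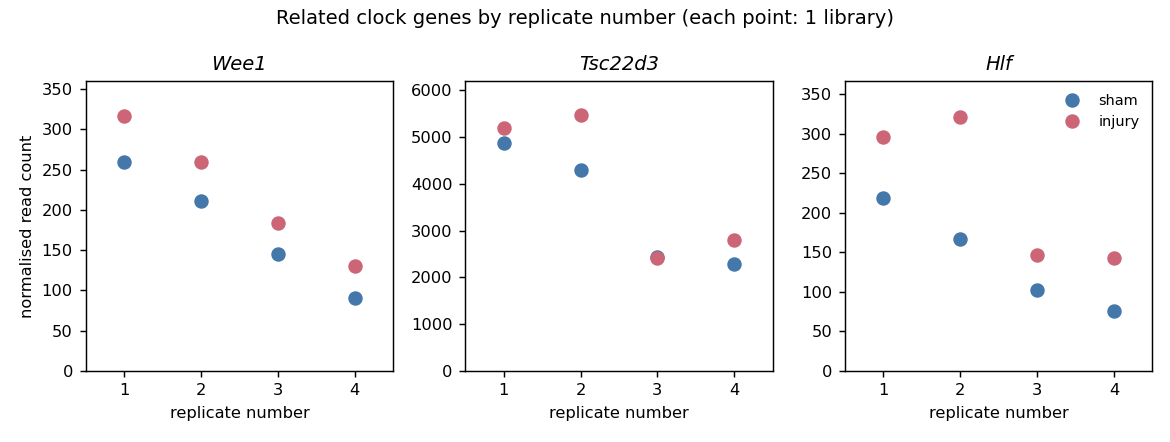
Normalised read count (y axis, starting at 0) by replicate number (x axis) in sham (blue) and injury (red) libraries for Wee1, Tsc22d3 and Hlf. In all 3 genes replicates 1 and 2 are above replicates 3 and 4 in both groups.

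Levels were compared between genes per kilobase of exon, using all exons of a gene in GENCODE M21. Nr1d1 had the highest level in both groups, 620 ± 338 normalised counts per kilobase in sham and 355 ± 181 in injured tendon (SD, n = 4 each), and its libraries did not overlap with those of the next gene in either group, although in sham its lowest library (353) was below the highest of Dbp (386). In sham it was followed by Nr1d2 at 239 ± 36.0, Dbp at 228 ± 109, Cry2 at 171 ± 20.3, Per1 at 131 ± 36.0 and Cry1 at 95.4 ± 22.1. Arntl, Per3, Clock and Per2 lay between 75.3 and 83.2. From Nr1d2 downward the ranges of neighbours in this order overlapped in every case, so their order is not settled by these libraries. In injured tendon Dbp took place 7 at 93.7 ± 23.7 and Per3 was the lowest at 48.3 ± 25.0.

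**Figure D5:**
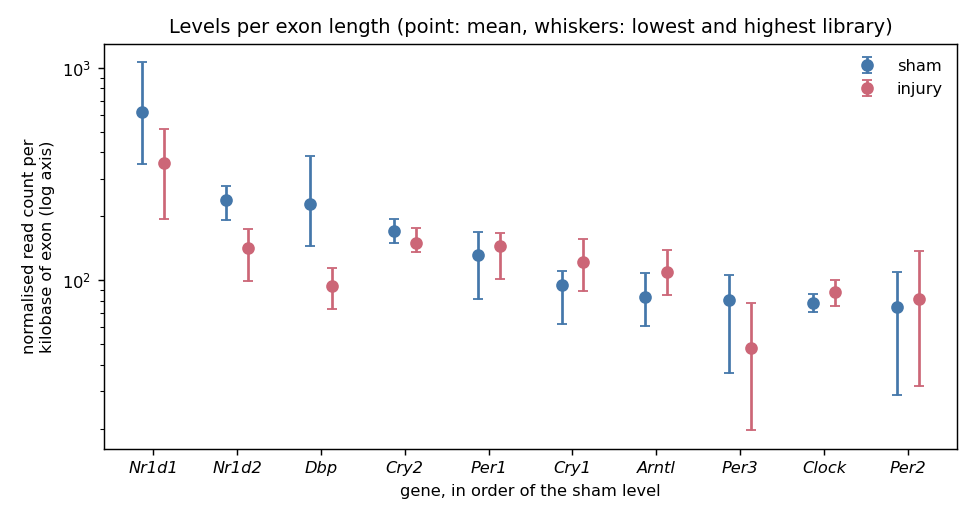
Level of each clock gene (x axis, in the order of the sham means) as normalised read count per kilobase of exon (log y axis), with the mean as a point and the lowest and highest of 4 libraries as whiskers. Nr1d1 has the highest mean in both groups and its whiskers are clear of the next gene in the order of each group, while in sham they overlap those of Dbp.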

How the data were processed

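RNA from 4 sham and 4 injured Achilles tendons was compared, grouped by sample title. The deposited values are scores: per the file headers they are normalised read counts, and the authors rounded them to whole numbers. Skipped and doubled integers show that the values are not raw counts, so no count model was used. Per the submitters' processing notes, the tools were Trimmomatic 0.39, STAR 2.7.6a, StringTie 1.3.5 and edgeR 3.12, and the builds mm10 and mm9 are both listed. Neither the normalization method nor the strandedness is given in the sources used here. Values summed to 13596488 to 16263086 per library, which is not the sequencing depth. The depth is unknown.

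A filter asking for 1 or more in 4 or more libraries removed 0 genes. Groups were compared by limma 3.58.1 (R 4.3.3) after a log2(value + 1) transform. The prior variance was allowed to follow mean expression, group was the only term, and two-sided p-values were adjusted over all genes. On simulated data it recovered 50% of 1.5-fold, 68% of 2-fold and 98% of 4-fold changes, with 10 false calls. The simulated noise was independent between libraries, without the likeness of same-numbered libraries seen in these data. Differences between the members of 7 gene pairs were tested by an exact two-sided permutation test over the 70 assignments of 8 libraries, adjusted over the pairs. Positions and exons came from GENCODE M21, in which 99.9% of tested identifiers were found, and promoters from RefSeq (GRCm38.p6). Plots used Python 3.11.15 and matplotlib 3.10.9.

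The clock genes and the related lists were chosen with earlier results of these data known. Named genes were all 10 clock genes and, from each related list, at most 3 called genes of lowest adjusted p on the side holding more calls, 1 such gene from the opposite side, and the gene of highest mean, plus genes whose exons overlap a clock gene. A gene that this rule names is not reported here. Alternatives covered 3 scalings, a pseudocount of 0.1, no filter, a minimum mean of 50, a single prior variance, a muscle covariate from 33 genes, a block for replicate number, and libraries left out.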

Additional observations from a re-analysis of the deposited data

Results flagged for a closer look

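Of 46 groups of 4 libraries checked for the named genes, 3 held a library far from the other 3. Chance gives about 1 in 20 groups, so this number is near what chance gives. Cry1 was at 209 normalised counts in sham replicate 3, against 344 to 370 in the other sham libraries. Cipc was at 744 in sham replicate 4, against 606 to 617 in the others. Csnk1a1 was at 3916 in sham replicate 4, against 3212 to 3254. Sham replicate 4 was also the sham library with the most muscle RNA, and the part of that in these values was not tested. Injury replicate 3 was likewise the lowest Cry1 library of its group, at 297.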

How the results depend on the processing

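The replicate numbers are shared between the groups, but the labels do not say that they mark a shared animal or day. Over all genes, the deviations from the group means of same-numbered libraries correlated at −0.01 to 0.49, with 1 pair not above 0.1, so the numbers were not taken as pairs, and 5 of 8 libraries were most like their own number. Over the 10 clock genes these correlations were 0.74 to 0.96, and all 8 libraries were most like their own number (−0.96 to 0.80 for different numbers). With the replicate number as a block, 61.9% of all genes were called, and of the clock genes 3 rose and 4 fell. These were Arntl (log2 fold change 0.41, adjusted p = 0.00102), Clock (0.17, adjusted p = 0.0461), Cry1 (0.36, adjusted p = 0.0148), Nr1d1 (−0.80, adjusted p = 0.000437), Per3 (−0.80, adjusted p = 0.00546), Nr1d2 (−0.76) and Dbp (−1.20), in limma. The fold changes are those of the fit without the block, and the standard errors were smaller, as for Nr1d1 at 0.10 in place of 0.45. In that fit 4 output genes rose. Compared within numbers, 5 of the 7 pair differences were higher in injured tendon for 4 of 4 numbers (Per1 and Per2 relative to Per3, Cry1 to Cry2, Arntl to Clock and Arntl to Dbp), each with adjusted p = 0.175 in the exact sign-flip test.

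The falls of Dbp and Nr1d2 kept their direction and call under 18 alternatives, except that Nr1d2 was not called with the muscle covariate (log2 fold change −0.66). Among these, the fit with no filter repeats the main fit, since the filter removed 0 genes. The replicate block cannot change a fold change, only its error. The muscle covariate left 2124 genes higher and 1574 lower. Muscle shares did not overlap between the groups, so this covariate cannot be cleanly separated from the group. It gave 2 clock genes that rose, Arntl (1.08) and Clock (0.56), with Per3 called at −2.94. It turned Per1 to −0.58, Per2 to −2.44, Cry1 to −0.0528, Nr1d1 to 0.66 and, among the regulators, Csnk1a1 to 0.10. Called regulators became 2 higher and 1 lower, and 1 output gene rose. Under upper quartile scaling 2 clock genes rose, Arntl (0.46) and Clock (0.22), where 4821 of all 15747 genes rose. With equal totals Per2 was at −0.0823, Csnk1a1 was called at −0.22, 2 regulators and 1 output gene rose, and with a single prior variance 1 output gene rose. Leaving out sham 4, injury 3 and injury 4 at once, 1 clock gene rose and 4 fell, with Per3 at −0.50, Cry1 at 0.71, Nr1d1 at −1.37 and Per2 at 0.525. There 2 accessory factors fell, Per1 relative to Per2 was −0.38, and Nr1d1 relative to Nr1d2 was −0.438. The causes were not tested.

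Leaving out 1 library gave 0 to 1 clock genes that rose and 1 to 2 output genes, while 4072 to 4307 of all genes rose. In the same fits 2 to 3 clock genes and 7 to 8 output genes fell, while 4531 to 4788 of all genes fell. The log2 fold changes ranged from 0.27 to 0.55 for Arntl, 0.10 to 0.24 for Clock, 0.17 to 0.50 for Cry1, −0.26 to −0.12 for Cry2, −0.0414 to 0.334 for Per1, −0.39 to 0.37 for Per2, −1.14 to −0.43 for Per3 and −1.03 to −0.488 for Nr1d1. The shift of Nr1d1 relative to Nr1d2 ranged from −0.27 to 0.23 and that of Per1 relative to Per2 from −0.13 to 0.43. With 1 library left out, the smallest exact p is 0.0286, and the sign-flip test of 4 same-numbered differences cannot go below 0.125. Depth could not be weighed, since the files give no raw counts.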

Other observations

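The sharing of levels between same-numbered libraries was not limited to clock genes. Among 13087 genes with a mean of at least 50, ranked by how far same-numbered libraries deviated together from their group means, Per2 was at place 24, Nr1d1 at 50 and Per3 at 66. Dbp was at 391, Per1 at 575, Cry1 at 678, Arntl at 837, Nr1d2 at 1044, Clock at 3571 and Cry2 at 3907. The ranking used a covariance, so genes that vary widely can stand higher in it. The next 3 genes were picked with their values in view. Rps3a3, at place 1, had 15, 659, 1370 and 482 normalised counts in sham replicates 1 to 4 and 26, 682, 1007 and 533 in injury replicates 1 to 4. Rufy4, at place 2, had 14, 645, 22 and 17 in sham and 6, 126, 4 and 1 in injured tendon, so that replicate 2 was far above the rest in both groups. Rpsa-ps10, at place 4, had 517, 1097, 88 and 1650 in sham and 701, 1140, 88 and 1703 in injured tendon. Rps3a3 and Rpsa-ps10 carry the names of ribosomal protein genes with close copies elsewhere in the genome, among which reads could be split.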
